A study of Mus musculus with 34 samples.

Results

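Heat shock proteins of the cytosol and the mitochondria, together with the transcription factor that controls the stress-inducible ones, were followed in bulk RNA-seq of the mouse dorsal hippocampus. The 10 members (*Hspa1a*, *Hspa1b*, *Hsph1*, *Hspb1*, *Hsp90aa1*, *Hspa8*, *Hsp90ab1*, *Hspd1*, *Hspe1* and *Hsf1*) were chosen by gene symbol from the 54532 genes of the count table, and all 10 were among the 22018 genes with enough counts to be tested. Adult male C57BL/6J mice of 2 to 3 months were trained in spatial object recognition (SOR), a hippocampus-dependent task in which objects are explored at fixed places in an open field, and were euthanized 1 h later (SOR, n = 4 libraries). Control mice stayed in the homecage (n = 4 libraries), and no transgene or drug is named for either group. The study asked which genes respond in the dorsal hippocampus in the first hour after learning, and its spatial and single-nucleus samples were not analysed here. The labels number the libraries within each group, so the spread reported is that between numbered libraries.

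Heat shock proteins are molecular chaperones, which bind unfolded proteins and help them fold, refold or be degraded. Constitutive members are made by every cell, whereas inducible members rise when heat or another proteotoxic stress releases HSF1 from its chaperone partners. HSF1 then forms trimers and binds heat shock elements, inverted repeats of GAA units, in the promoters of inducible members. In neurons the constitutive HSC70 is abundant and serves, among other tasks, the uncoating of clathrin-coated synaptic vesicles.

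The promoters are shown first because heat shock elements are the sites that HSF1 recognises, and the windows show which members, inducible or constitutive, hold their letters near the start of transcription. RefSeq promoter windows of 300 bases around the annotated start of transcription (build GRCm38.p6) matched 6 of the 10 members, *Hspa1a*, *Hspa1b*, *Hsph1*, *Hspb1*, *Hspd1* and *Hspe1*. They were searched, as read on the gene's strand, for the 2-unit heat shock elements GAANNTTC and TTCNNGAA, which read the same on both strands, and for the 3-unit forms, in which a 2-unit element is followed, after NN, by 1 more alternating GAA or TTC unit. Each 3-unit form is the reverse complement of the other and contains both 2-unit forms. The 150 bases upstream of the start are printed from 5′ to 3′ for 5 of the 6 members, with the bases covered by a match in capitals. The match of *Hspd1* is not printed separately, since it covers the same bases of the genome as that of *Hspe1*, read on the other strand.
Hspa1a: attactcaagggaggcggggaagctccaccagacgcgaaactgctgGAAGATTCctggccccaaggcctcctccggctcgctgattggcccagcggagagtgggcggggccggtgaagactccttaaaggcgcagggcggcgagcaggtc
Hspa1b: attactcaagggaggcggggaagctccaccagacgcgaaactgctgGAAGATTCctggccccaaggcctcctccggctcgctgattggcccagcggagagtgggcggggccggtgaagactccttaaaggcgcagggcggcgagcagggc
Hsph1: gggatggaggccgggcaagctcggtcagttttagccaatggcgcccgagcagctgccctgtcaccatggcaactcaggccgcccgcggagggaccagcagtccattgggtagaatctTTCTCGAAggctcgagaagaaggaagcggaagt
Hspb1: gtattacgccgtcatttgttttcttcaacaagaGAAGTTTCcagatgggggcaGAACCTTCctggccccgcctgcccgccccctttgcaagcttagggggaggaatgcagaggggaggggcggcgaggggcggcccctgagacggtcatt
Hspe1: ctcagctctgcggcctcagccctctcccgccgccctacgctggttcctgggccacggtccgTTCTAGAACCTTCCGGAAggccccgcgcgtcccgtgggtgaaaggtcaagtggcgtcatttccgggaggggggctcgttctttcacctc

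The first window lies on the minus strand at chr17:34972157-34972306 and the second on the minus strand at chr17:34959239-34959388. Their 150 bases differ at 1 base, and both hold a single GAANNTTC at 104 to 97 bases before the start. *Hsph1* (minus strand, chr5:149636337-149636486, the first of 2 annotated starts) held TTCNNGAA at 33 to 26 bases before the start, and a 3-unit element from base 36 to base 48 after it. *Hspb1* (plus strand, chr5:135887769-135887918) held GAANNTTC at 117 to 110 and again at 97 to 90 bases before the start. *Hspe1* (plus strand, chr1:55087998-55088147) held a run of overlapping elements from 89 to 72 bases before the start. *Hspd1*, its neighbour on the opposite strand, has 2 annotated starts, and the second holds the same run, on the other strand, at 144 to 127 bases before it, whereas the window of the first holds no match to these letters. One or both of the 2-unit forms occurred in 15.1% of the 32851 promoter windows of the mouse, and a 3-unit form in 0.603%. The map of motif positions shows these distances, and a match describes letters, not binding.

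**Figure D1:**
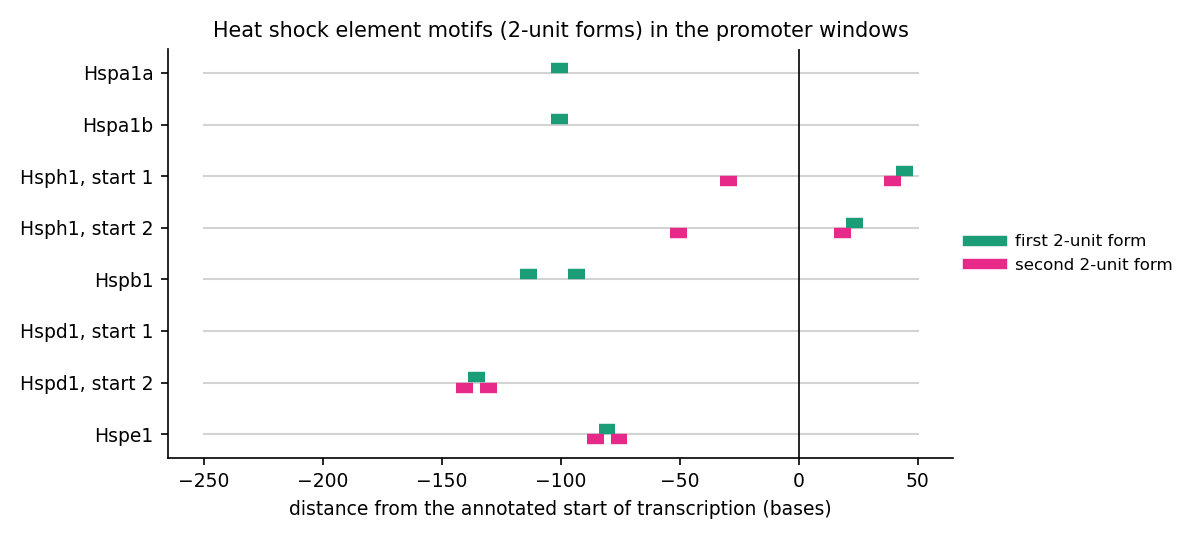
Position of 2-unit heat shock element matches in the RefSeq promoter windows of 6 members, with the distance from the annotated start of transcription in bases on the x axis and 1 grey line per window. The first form is GAANNTTC and the second TTCNNGAA; Hspa1a and Hspa1b have 1 match each at the same place, Hspe1 and the second start of Hspd1 have 3 overlapping ones, and the first start of Hspd1 has none.

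Total counts per library lay between 51406011 and 81525977, and every member had at least 175.3 counts in every library. SOR replicate 1 was left out in a further fit because earlier results of these data had shown this library apart. Its summed level of 6 choroid plexus markers (*Ttr*, *Folr1*, *Kl*, *Clic6*, *Aqp1* and *Otx2*) was 3988 CPM (counts per 1000000 counts of the library, after upper-quartile scaling). The sum was 1091, 25.0, 65.5 and 878 CPM in homecage replicates 1 to 4 and 879, 791 and 41.3 CPM in SOR replicates 2 to 4, so the level of RNA from the choroid plexus, the tissue that secretes cerebrospinal fluid beside the hippocampus, varied within both groups. All 6 markers were highest in SOR replicate 1 and none was at 0 in any library. The labelled tissue was checked with 6 markers of hippocampal neurons, which summed to 1118 to 1310 CPM in all 8 libraries, 1210 CPM in SOR replicate 1. In whole tissue, fewer cells of a type and less RNA per cell cannot be told apart.

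Inducible HSP70, encoded by *Hspa1a* and *Hspa1b*, was higher in every SOR library than in every homecage library. *Hspa1a* (minus strand, chr17:34969190-34972156) measured 16.6, 13.6, 12.3 and 12.1 CPM in the homecage libraries and 50.8, 22.7, 27.1 and 23.9 CPM in SOR replicates 1 to 4. *Hspa1b* (minus strand, chr17:34956436-34959238) measured 16.1, 13.97, 12.3 and 11.1 CPM in the homecage and 58.8, 26.5, 24.8 and 21.2 CPM after SOR. The groups did not overlap for either gene, and the first SOR library lay far above the mean of the other SOR libraries, at 2.07 times it for *Hspa1a* and 2.43 times it for *Hspa1b*. With all 8 libraries the log2 fold change (given with its standard error, SE) of *Hspa1a* was 1.19 (SE 0.237, adjusted p = 0.0834 by edgeR's quasi-likelihood F test) and that of *Hspa1b* 1.30 (SE 0.288, adjusted p = 0.125), and neither passed the threshold of 0.05. Without SOR replicate 1 both rose, by 1.80-fold for *Hspa1a* (log2 fold change 0.85, SE 0.115, adjusted p = 0.0163) and by 1.81-fold for *Hspa1b* (0.86, SE 0.127, adjusted p = 0.0270). Leaving out the library in which both genes were highest lowered both the estimate and its standard error.

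The coding transcripts of these neighbouring genes, 9951 bp apart, were 99.2% identical over 2201 aligned bases, so that reads can be assigned to either copy and their separate values are uncertain. *Hspa1a* took 46.2% to 53.0% of the pair's counts in each library. The sum of both was 32.7, 27.6, 24.6 and 23.2 CPM in homecage and 110, 49.2, 51.9 and 45.1 CPM in SOR libraries. Its log2 fold change was 1.25 (SE 0.258, adjusted p = 0.0985) with all libraries and 0.85 (SE 0.108, adjusted p = 0.0121) without SOR replicate 1. The sum, which does not depend on how reads were split between the copies, gave the same calls as each copy.

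*Hsph1* encodes HSP110, a nucleotide exchange factor that resets HSP70 for another round of folding. It measured 218, 208, 213 and 217 CPM in the homecage and 334, 261, 264 and 237 CPM after SOR. The SOR libraries were all above the homecage libraries, which lay close together. The log2 fold change was 0.36 (SE 0.0871, adjusted p = 0.166) with all libraries and 0.25 (SE 0.0450, adjusted p = 0.0835) without SOR replicate 1, and did not pass the threshold in either fit.

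*Hspb1* encodes HSP25, a small heat shock protein that holds unfolded proteins and binds actin filaments. It was the inducible member with the fewest counts, with 3.76, 2.75, 3.12 and 3.41 CPM in the homecage and 14.03, 4.63, 5.34 and 4.73 CPM after SOR. The groups did not overlap, but SOR replicate 1 stood at 2.86 times the mean of the other SOR libraries, the largest such ratio among the 10 members. The log2 fold change of 1.15 (SE 0.336, adjusted p = 0.266) became 0.59 (SE 0.131, adjusted p = 0.159) without that library.

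*Hsp90aa1*, the inducible cytosolic HSP90, did not follow the other inducible members. It measured 1226, 1329, 1371 and 1259 CPM in the homecage and 1774, 1347, 1235 and 1277 CPM after SOR. The other 3 SOR libraries lay inside the homecage range, and SOR replicate 1 was 1.38 times their mean. The log2 fold change was 0.12 (SE 0.102, adjusted p = 0.755) with all libraries and -0.01 (SE 0.0494, adjusted p = 0.964) without SOR replicate 1.

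**Figure D2:**
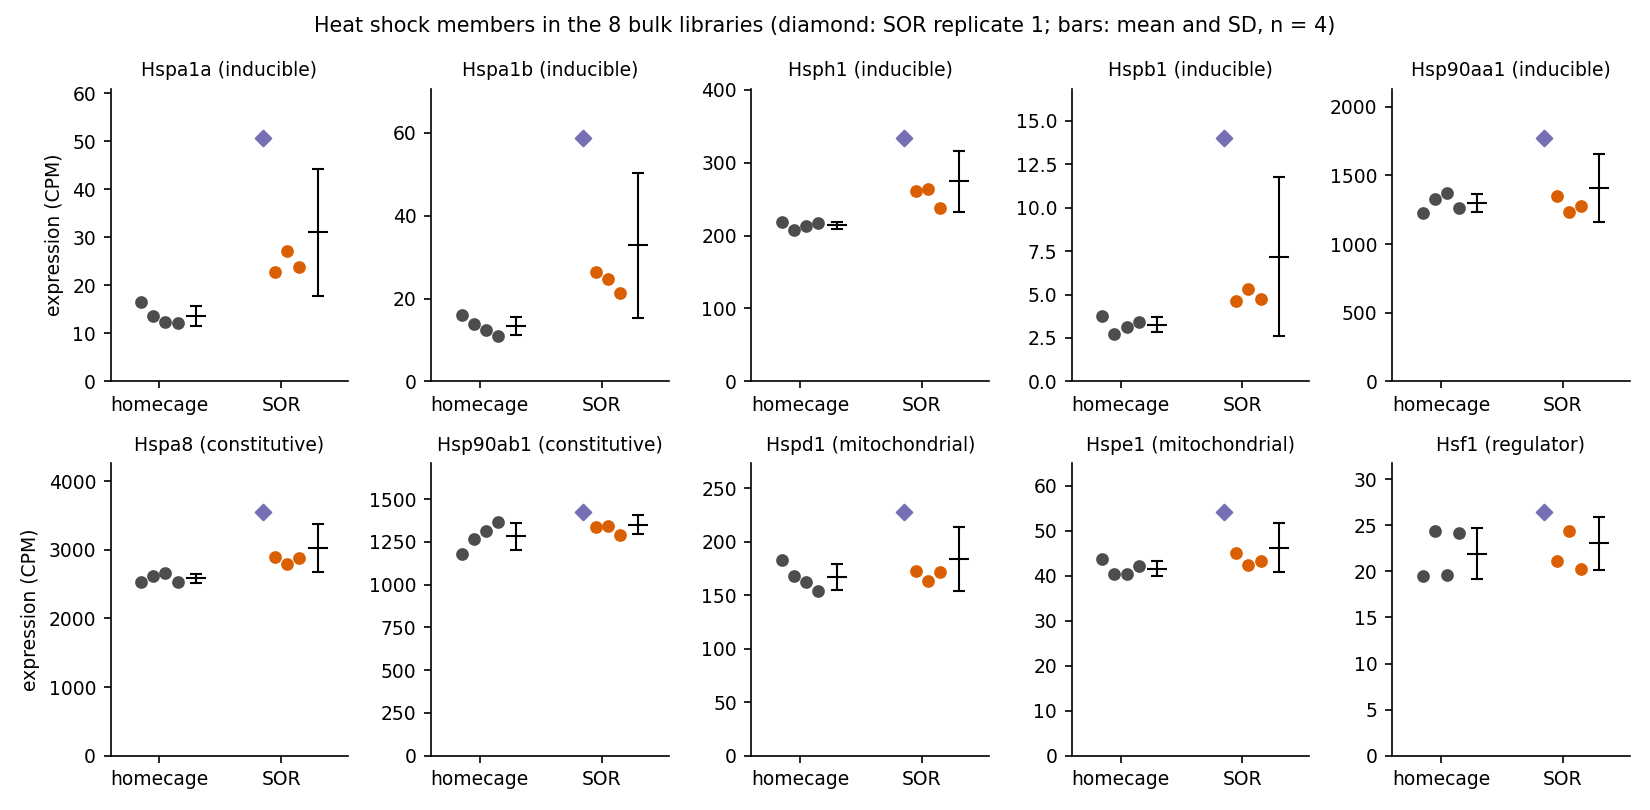
Expression of the 10 members in CPM (y axes from 0, scaled per gene) in 4 homecage and 4 SOR libraries; each point is 1 library, the diamond is SOR replicate 1, and the bars beside the points give the mean and SD (n = 4). SOR replicate 1 is the highest point in all 10 panels, and the groups separate for Hspa1a, Hspa1b, Hsph1, Hspb1 and Hspa8.

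Of the constitutive members, *Hspa8* showed the clearest separation. It encodes HSC70, the always-present cytosolic HSP70, and measured 2527, 2613, 2670 and 2526 CPM in the homecage and 3553, 2893, 2796 and 2876 CPM after SOR. The groups did not overlap, yet the differences were small, with a log2 fold change of 0.23 (SE 0.0724, adjusted p = 0.311) and of 0.14 (SE 0.0356, adjusted p = 0.207) without SOR replicate 1. *Hsp90ab1*, the constitutive HSP90, measured 1182, 1267, 1314 and 1368 CPM in the homecage and 1425, 1337, 1343 and 1292 CPM after SOR. Its groups overlapped, and the log2 fold change was 0.07 (SE 0.0533, adjusted p = 0.701).

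The mitochondrial chaperonin HSP60 (*Hspd1*) and its cochaperonin HSP10 (*Hspe1*) form the folding chamber of the mitochondrial matrix and are transcribed in opposite directions from a shared promoter region, their annotated ends overlapping by 112 bp. *Hspd1* measured 183, 168, 163 and 154 CPM in the homecage and 228, 172, 163 and 172 CPM after SOR. *Hspe1* measured 43.7, 40.3, 40.3 and 42.0 CPM in the homecage and 54.1, 45.0, 42.4 and 43.3 CPM after SOR. In both genes the groups overlapped, and SOR replicate 1 was above all other libraries, at 1.35 and 1.24 times the mean of the other SOR libraries. The log2 fold changes were 0.14 for *Hspd1* (SE 0.0978, adjusted p = 0.684) and 0.15 for *Hspe1* (SE 0.0750, adjusted p = 0.534), and 0.02 and 0.07 without that library.

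*Hsf1*, the gene of the transcription factor itself, is regulated mainly through its protein. It measured 19.5, 24.4, 19.6 and 24.2 CPM in the homecage and 26.5, 21.1, 24.4 and 20.2 CPM after SOR, with overlapping groups. The log2 fold change was 0.07 (SE 0.108, adjusted p = 0.876) and -0.003 without SOR replicate 1.

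Across the members, edgeR's quasi-likelihood test called 0 of 10 with all 8 libraries by the call rule (adjusted p below 0.05, fold change over 1.4), where 0.15% of all tested genes were called higher. At an unadjusted p under 0.05, 5 of 10 were higher (*Hspa1a*, *Hspa1b*, *Hsph1*, *Hspb1* and *Hspa8*), against 4.54% of all genes. The same 5 had every SOR library above every homecage library, against 2.98% of all genes. The count of calls depended on the test: DESeq2 and edgeR's likelihood ratio test called 2 members, limma-voom 0, and fits with 1, 2 and 3 RUVs factors (a correction for unwanted variation that the study also used, with a number of factors that is not given) called 1, 3 and 3, the third being *Hspb1*. With RUVs factors and the same thresholds, the study itself names *Hspa1a*, *Hspa1b*, *Hsph1* and *Hspb1* among its bulk RNA-seq genes. It lists them among genes that its spatial data, pooled over spots, did not identify. *Hsph1* was called in no fit here, since its log2 fold change reached at most 0.42, which is under a fold change of 1.4. The reason for this difference from the study was not tested. Without SOR replicate 1, 2 of 10 members were called, where 0.153% of all genes were called higher. On these 7 libraries limma-voom and TMM scaling called the same 2, *Hspa1a* and *Hspa1b*, and DESeq2 called *Hspb1* as well. Leaving out any other single library called 0. In all these counts *Hspa1a* and *Hspa1b* enter as separate members, although reads can be assigned to either copy, so they are not independent.

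Grouped by role, the 5 inducible members had a median log2 fold change of 1.15 (from 0.12 to 1.30) and the 4 constitutive members 0.15 (from 0.07 to 0.23), beside -0.02 over all tested genes. Without SOR replicate 1 these medians were 0.59 for the inducible and 0.06 for the constitutive members. The ranges overlap through *Hsp90aa1*, whose value lay among those of the constitutive members, while *Hsph1* lay between both sets. *Hspa1a* and *Hspa1b* enter the inducible median as separate members, although reads can be assigned to either copy, so the pair weighs more in it. Their sum had a log2 fold change of 1.25 with all libraries and 0.85 without SOR replicate 1.

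**Figure D3:**
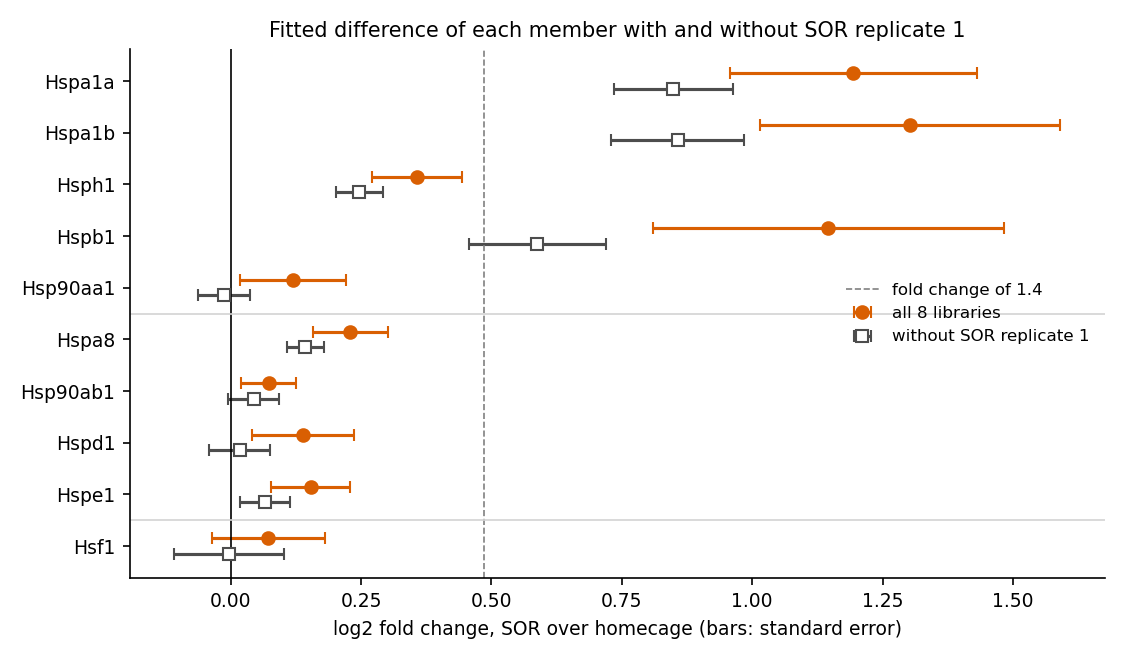
Fitted log2 fold change, SOR over homecage, with its standard error on the x axis for each member, with all 8 libraries (filled circles) and without SOR replicate 1 (open squares); grey lines divide inducible members, constitutive members and Hsf1. All 10 points move left when that library is left out, and Hspa1a, Hspa1b and Hspb1 are the members to the right of a fold change of 1.4 in both fits.

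The ratio of inducible to constitutive counts within a library does not depend on how libraries are scaled. Counts of *Hspa1a* and *Hspa1b* together were 1.29%, 1.06%, 0.922% and 0.917% of those of *Hspa8* in the homecage and 3.09%, 1.70%, 1.86% and 1.57% after SOR. Every SOR ratio was above every homecage ratio, 1.91-fold higher on the geometric mean. The exact two-sided permutation test over the 8 libraries gave p = 0.0286, the smallest it can give, and an adjusted p of 0.0571 over the 2 ratios tested, which misses the threshold. Without SOR replicate 1 the ratio was 1.65-fold higher (exact permutation p = 0.0571, again the smallest possible, with adjusted p = 0.114). For HSP90, *Hsp90aa1* counts were 104%, 105%, 104% and 92.0% of *Hsp90ab1* counts in the homecage and 125%, 101%, 92.0% and 98.8% after SOR. These overlapped, with a difference of 0.03 on the log2 scale (exact permutation p = 0.886) that became -0.06 without SOR replicate 1 (exact permutation p = 0.343).

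**Figure D4:**
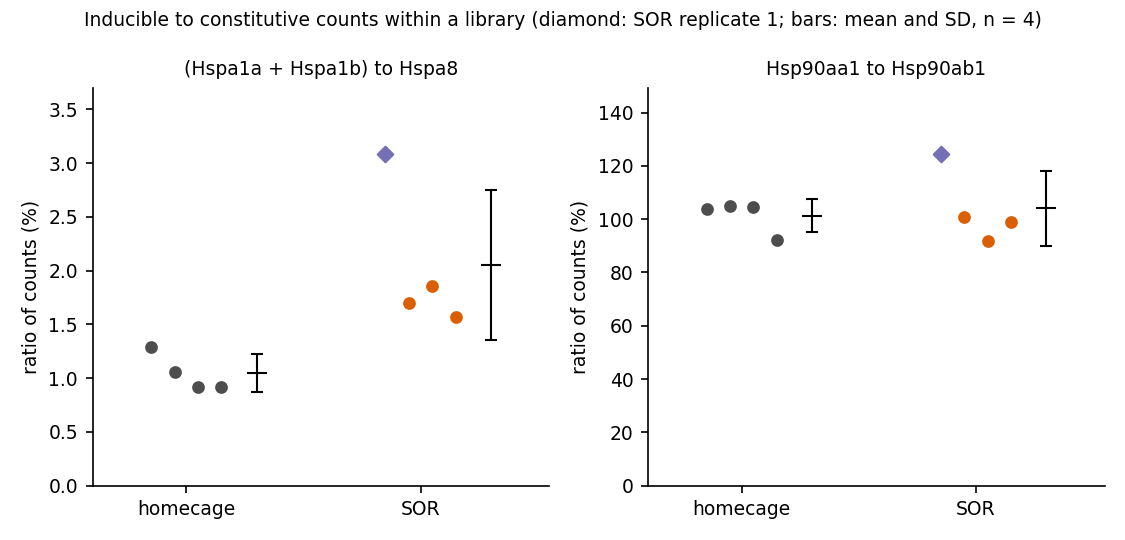
Counts of inducible members as a percentage of the counts of their constitutive relative in the same library, for HSP70 (left) and HSP90 (right); each point is 1 library, the diamond is SOR replicate 1, and the bars give the mean and SD (n = 4). The HSP70 ratio is 0.917% to 1.29% in homecage and 1.57% to 3.09% in SOR libraries, whereas the HSP90 ratios of the groups overlap.

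Per length, the constitutive members and *Hsp90aa1* exceeded inducible HSP70 by far. As mean RPKM (CPM per kilobase of exon) in the homecage, *Hspa8* stood at 601 ± 16.3, *Hsp90ab1* at 428 ± 26.4 and *Hsp90aa1* at 330 ± 16.8 (SD, n = 4). *Hspd1* followed at 63.1 ± 4.54, *Hsph1* at 29.4 ± 0.646 and *Hspe1* at 28.2 ± 1.10 (SD, n = 4). *Hspa1b* at 4.77 ± 0.775, *Hspa1a* at 4.60 ± 0.694, *Hspb1* at 3.16 ± 0.416 and *Hsf1* at 3.09 ± 0.391 were lowest (SD, n = 4). The spreads overlap between *Hsph1* and *Hspe1*, between both HSP70 copies, and between *Hspb1* and *Hsf1*. The length used merges all annotated exons of a gene, 7099 bp for *Hsf1* and 1031 bp for *Hspb1*, so this order depends on it. Before division by length, *Hsf1* averaged 21.9 CPM and *Hspb1* 3.26 CPM in the homecage. All 10 members together made up 0.543% to 0.582% of the scaled counts in homecage libraries, 0.752% in SOR replicate 1 and 0.592% to 0.613% in the other SOR libraries. *Hspa8* alone supplied 45.0% to 48.2% of that sum. Reads of *Hspa8*, *Hsp90aa1* and *Hspe1* could also map to processed pseudogenes with at least 90% identity. In that order, the pseudogenes made up 0.073% to 0.115%, 0.305% to 0.504% and 0.506% to 1.35% of the counts of pseudogenes and parent gene together.

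SOR replicate 1 was the highest of the 8 libraries for 10 of 10 members, against 15.1% of all tested genes. Its excess over the other SOR libraries ran from 1.08 times for *Hsp90ab1* to 2.86 times for *Hspb1*. The part of the choroid plexus markers in this excess was not tested. In libraries low in those markers, inducible HSP70 summed to 45.1 CPM in SOR replicate 4 and to 27.6 and 24.6 CPM in homecage replicates 2 and 3. In libraries with 791 to 1091 CPM of the markers, it summed to 49.2 and 51.9 CPM in SOR replicates 2 and 3 and to 32.7 and 23.2 CPM in homecage replicates 1 and 4. SOR replicate 4 was the only SOR library low in the markers, and no other library of either group was near the marker level of SOR replicate 1. Red blood cell markers summed to 177 CPM in SOR replicate 1, 98.6 to 127 CPM in the homecage and 115 to 184 CPM in the other SOR libraries, and endothelial and mural markers of SOR replicate 1 (134 and 121 CPM) lay inside the homecage ranges of 121 to 146 and 107 to 128 CPM.

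**Figure D5:**
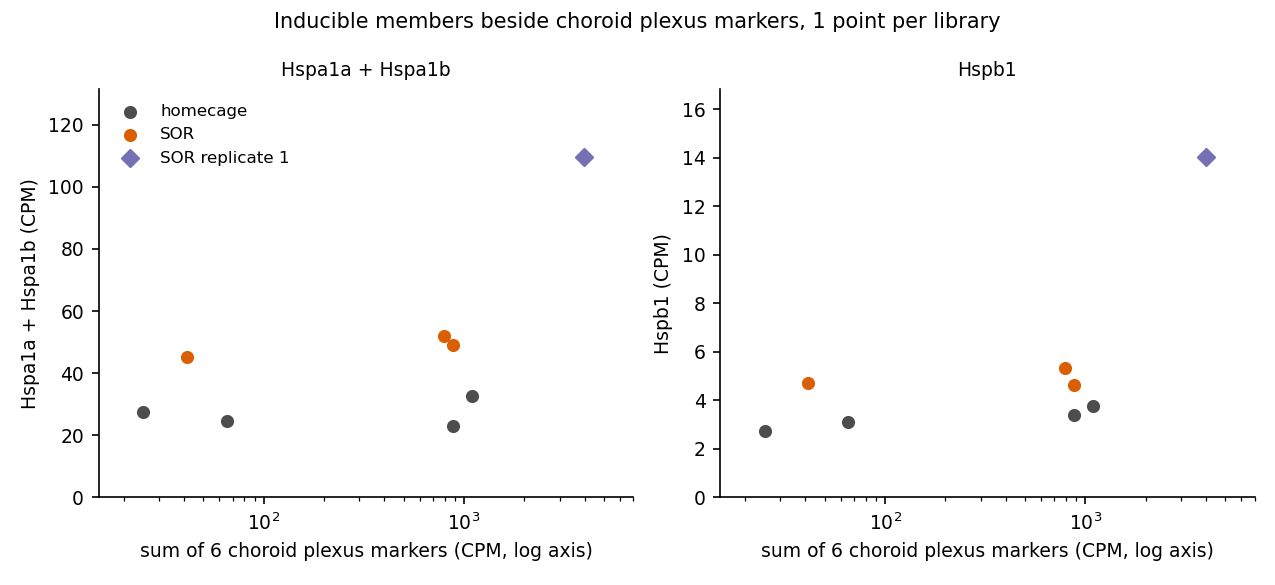
Summed CPM of Hspa1a and Hspa1b (left) and CPM of Hspb1 (right) against the summed CPM of 6 choroid plexus markers on a log x axis, 1 point per library. At 25.0 to 65.5 CPM of the markers 1 SOR point lies above 2 homecage points, at 791 to 1091 CPM 2 SOR points lie above 2 homecage points, and SOR replicate 1 lies alone at 3988 CPM.

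Some genes of related systems also stood apart in SOR replicate 1. *Hspa5*, the HSP70 of the endoplasmic reticulum, measured 609 CPM in it against 332 to 358 CPM in the other SOR and 238 to 324 CPM in the homecage libraries. *Cirbp*, a cold-inducible RNA-binding protein whose level falls with warming, measured 15.4 CPM in it against 23.3 to 24.6 CPM in the other SOR and 27.2 to 31.3 CPM in the homecage libraries. *Rbm3*, its cold-inducible relative, measured 43.6 CPM in it against 62.1 to 70.5 and 64.4 to 77.5 CPM. Of 3 immediate early genes, *Arc* was also highest in SOR replicate 1, at 266 CPM against 218 to 257 CPM in the other SOR libraries, whereas *Fos* was 11.1 CPM in SOR replicate 1 and 12.03 to 15.1 CPM in the other SOR libraries, and *Egr1* was 31.3 against 37.8 to 58.8 CPM. *Arc*, *Fos* and *Egr1* were called with and without that library, with log2 fold changes of 1.42, 1.89 and 1.09 with all libraries. The call of *Egr1* was lost when any of 6 other libraries was left out (adjusted p from 0.0563 to 0.1002), with the replicate block (adjusted p = 0.0591) and with robust dispersions (adjusted p = 0.0624).

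Of the other chaperones, the HSP40 cochaperone *Dnajb1*, which stimulates the ATPase of HSP70 and is itself heat inducible, rose. It measured 26.7, 21.9, 23.5 and 23.3 CPM in the homecage and 54.1, 35.4, 39.1 and 34.3 CPM after SOR. The log2 fold change was 0.77 (SE 0.133, adjusted p = 0.0445), and 0.60 without SOR replicate 1 (adjusted p = 0.0122), so that this partner of HSP70 passed the threshold in both fits, unlike any of the 10 members. The direction held with every library left out in turn (0.60 to 0.84), but leaving out any of the other 7 libraries ended the call (adjusted p from 0.0521 to 0.177), as did limma-voom, scaling to library size and robust dispersions (adjusted p = 0.0596, 0.0650 and 0.0657). *Dnaja1*, a further HSP40, had a log2 fold change of 0.24 (adjusted p = 0.225), and *Hsp90b1*, the HSP90 of the endoplasmic reticulum, 0.21 (adjusted p = 0.518).

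The wider chaperone network was described with 62 further genes in 7 lists, of which 58 had enough counts. None passed an adjusted p of 0.05 in edgeR's quasi-likelihood test with or without SOR replicate 1. At an unadjusted p under 0.05, 8 of 58 were higher, against 4.54% of all tested genes, and 2 of 58 lower, against 5.51%, and the median log2 fold change over the 58 was 0.02, beside -0.02 over all genes. DESeq2 passed 2 of the 58 (*Ahsa2* and *Chordc1*, both higher), the likelihood ratio test 1 (*Ahsa2*) and limma-voom 0. SOR replicate 1 was the highest library for 21 of the 58, against 15.1% of all tested genes.

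HSP90 cochaperones held 5 of the 8 higher genes at unadjusted p, among 13 measured, where 4.54% of all tested genes were higher at that p. Another 1 of the 13 was lower at that p, against 5.51% of all tested genes. *Ahsa2*, a relative of the activator of the HSP90 ATPase, measured 24.0, 24.3, 20.2 and 22.0 CPM in the homecage and 37.3, 31.5, 28.3 and 25.8 CPM after SOR, with a log2 fold change of 0.44 (SE 0.109, adjusted p = 0.169). Among 10 HSP70 cochaperones outside the DNAJ family, 2 were higher at unadjusted p, against the same 4.54%. *Bag3*, a heat-inducible exchange factor that couples HSP70 and small heat shock proteins to autophagy, measured 2.91, 2.86, 2.82 and 3.26 CPM in the homecage and 4.95, 3.78, 3.50 and 3.91 CPM after SOR. Its log2 fold change was 0.45 (SE 0.129, adjusted p = 0.258). For both genes, each named for the largest log2 fold change in its list, the groups did not overlap. Of the 58 tested genes of all lists, 7 had every SOR library above every homecage library, against 2.98% of all tested genes. Another 3 had every SOR library below, against 3.96%.

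In the other lists, 1 of 8 tested subunits of the cytosolic chaperonin TRiC/CCT was higher at unadjusted p, against 4.54% of all tested genes, and *Cct4* had the largest log2 fold change, 0.14 (adjusted p = 0.466). None of 9 other mitochondrial chaperones and proteases was at an unadjusted p under 0.05 in either direction, and the largest difference was that of *Hscb*, a cochaperone of iron-sulfur cluster assembly, at -0.23 (adjusted p = 0.613). The same count of 0 held for 7 other cytosolic HSP70 and HSP110 genes, led by *Hspa4l* at 0.15 (adjusted p = 0.611), and for 5 HSF factors and HSF binding proteins, led by *Hsbp1l1* at -0.33 (adjusted p = 0.762). Among 6 tested small heat shock proteins 1 was lower at unadjusted p, against 5.51% of all tested genes, and the largest difference was that of *Hspb8*, the partner of BAG3, at 0.37 (adjusted p = 0.516), with 21.7 CPM in SOR replicate 1 and 11.9 to 13.02 CPM in the other SOR libraries against 10.2 to 12.8 CPM in the homecage.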

How the data were processed

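Bulk RNA was sequenced from 8 dorsal hippocampi, 4 homecage and 4 SOR. The methods name ribosomal RNA depletion and the labels polyA RNA. Per the study's methods, the bcbio-nextgen pipeline aligned reads with STAR and counted them with featureCounts. The authors deposited estimated counts per gene from tximport without normalization, of which 52.6% are not whole, and how these relate to featureCounts, which is named for the gene counts, is not given in the sources used here. Gene symbols and positions came from GENCODE M21 (GRCm38), which holds 54495 of the 54532 genes.

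Counts were rounded, filtered with filterByExpr and scaled with upper-quartile factors, the kind of scaling the study names. The test was edgeR 4.0.16's quasi-likelihood F test (R 4.3.3), without RUVs factors. The Benjamini-Hochberg method was applied over all genes tested, 22018 with all libraries and 22166 without SOR replicate 1. A call needed both an adjusted p below 0.05 and a fold change over 1.4. Standard errors were taken from the log2 fold change and F. Ratios were tested with exact two-sided permutation over libraries (smallest p 0.0286 for 4 against 4 and 0.0571 for 4 against 3). Similar transcripts were found with blastn 2.17.0 (at least 90% identity over 300 bases). The fits were tested on simulated counts with 200 changed genes and no library set apart. At a log2 fold change of 1, an adjusted p under 0.05 recovered 74.5% of them with 8 libraries and 73.5% with 7. At 0.35 it recovered 30.0% and 18.5%, so small differences were often missed. False calls made up 1.34% to 6.25% of the calls.

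Genes were named by a rule: the 10 members, 9 comparison genes, the largest log2 fold change in each list of chaperones or cell type markers (hippocampal neurons, astrocytes, oligodendrocytes, microglia, endothelial, mural, choroid plexus and red blood cells) with any gene passing the threshold, and the 10 genes most like the summed inducible HSP70. *Chordc1* is named both for that likeness and for its DESeq2 call. The members and lists were chosen with earlier results of these data known. Replicates differed by more than counting error (chi-square per degree of freedom 11.9 to 54.1). Other scalings, filters, tests, RUVs factors, a replicate block and leaving out each library were tried.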

Additional observations from a re-analysis of the deposited data

Results flagged for a closer look

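A library far from the other 3 of its group was looked for in the 37 quantities named in the text, in both groups. It was found 12 times in 74 groups, of which 10 were SOR replicate 1. Chance gives about 5% for independent quantities chosen blind to the values. These quantities share libraries, and some were named for the largest log2 fold change in their list. The counts therefore cannot be judged against that rate. SOR replicate 1 was far above the other SOR libraries for *Hspa1a* (50.8 CPM against 22.7 to 27.1), *Hspa1b* (58.8 CPM against 21.2 to 26.5) and the sum of both (110 CPM against 45.1 to 51.9). The same was seen for *Hspb1* (14.03 CPM against 4.63 to 5.34), *Hspa8* (3553 CPM against 2796 to 2893) and *Hspd1* (228 CPM against 163 to 172). Outside the members it was seen for *Hspa5* (609 CPM against 332 to 358), *Hspb8* (21.7 CPM against 11.9 to 13.02) and the choroid plexus marker *Folr1* (53.1 CPM against 0.727 to 7.60), and in the low direction for *Cirbp* (15.4 CPM against 23.3 to 24.6). In the homecage, replicate 3 was low for *Rbm3* (64.4 CPM against 75.7 to 77.5) and replicate 4 was low for the ratio of *Hsp90aa1* to *Hsp90ab1* (92.0% against 104% to 105%).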

How the results depend on the processing

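With all libraries, the 10 members kept the sign of their log2 fold change under the 14 alternatives that kept every library. Members called numbered 1 with no filter, with 1 RUVs factor and with the replicate block, 2 with the likelihood ratio test and with DESeq2, 3 with 2 or 3 RUVs factors, and 0 to 2 when 1 library was left out. Genes called higher numbered 69 with the likelihood ratio test, 82 with DESeq2, 60 with no fold threshold and 20 to 34 when 1 library was left out, against 33. Genes called lower numbered 8 with no filter, with 1 RUVs factor, with robust dispersions (chosen after seeing the data) and with no fold threshold, 36 with the likelihood ratio test, 32 with DESeq2, 10 and 12 with 2 and 3 RUVs factors, 3 with the replicate block and 2 to 5 when 1 library was left out, against 5. Of the other chaperones, the likelihood ratio test passed 1 and DESeq2 2, both run after seeing the data. The cause of these differences was not tested.

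Left out in turn, single libraries gave log2 fold changes of 0.85 to 1.38 for summed inducible HSP70, -0.013 to 0.18 for *Hsp90aa1* and -0.0026 to 0.13 for *Hsf1*. On the log2 scale the HSP70 ratio was 0.72 to 1.04, where 7 libraries cannot give an exact p under 0.0571, and the HSP90 ratio -0.058 to 0.087. On the 7 libraries without SOR replicate 1, *Hsp90aa1* and *Hsf1* were 0.0014 and 0.012 with DESeq2 and 0.0005 and 0.011 with TMM scaling. The labels do not say whether the replicate number pairs mice. Deviations of same-numbered libraries correlated at -0.08 to 0.07 and others at -0.20 to 0.19, and so few libraries cannot decide it. With the replicate block, *Hspa1a* had a log2 fold change of 1.12 (adjusted p = 0.0341), and genes called higher numbered 27. Depth did not limit the members, of which the lowest count was 175.3.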

Other observations

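The genes whose log2 CPM ran closest to that of summed inducible HSP70 were listed as a description, over the 16342 genes averaging at least 1 CPM. Over the 8 libraries the 10 most alike were *Ankrd26*, *Acbd3*, *Herpud1*, *Dnajb1*, *Hspa5*, *Dnaja1*, *Pdia6*, *Mtmr4*, *Chordc1* and *P4ha1*, with Pearson's r from 0.97 to 0.98. The list holds both HSP40 cochaperones compared here and *Hspa5*, *Pdia6* and *Herpud1*, genes of folding and degradation in the endoplasmic reticulum. Over the 7 libraries without SOR replicate 1 the 10 most alike were *Slc24a4*, *Ankrd26*, *Sap30*, *Gm26945*, *Osbpl6*, *Egr2*, *Csnk2a2*, *Mtmr4*, *Slf2* and *Jmjd6*, and 2 genes (*Ankrd26* and *Mtmr4*) were in both lists. The 10 genes of the 8-library list still had r from 0.92 to 0.98 over these 7 libraries. Those of the 7-library list had r from 0.31 (*Slc24a4*) to 0.98 over the 8. The points share libraries and the difference between groups, so no p is given.

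Homecage libraries also differed among themselves. Homecage replicate 1 was the highest of the 4 homecage libraries for 6 of 10 members, 4 of them inducible (*Hspa1a*, *Hspa1b*, *Hsph1* and *Hspb1*). The share of all tested genes for which it was highest within the group was not computed. It held the most choroid plexus marker counts in that group, 1091 CPM. Homecage replicate 4 held 878 CPM and was the highest for 1 member. It had the lowest *Hspa1a* and *Hspa1b* of the group (12.1 and 11.1 CPM), but came next after replicate 1 for *Hsph1* and *Hspb1*. Whether the levels of the members and of the markers are related was not tested.

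None of the cell type markers passed the threshold with or without SOR replicate 1. The largest log2 fold change with all libraries was that of *Folr1* (1.81, adjusted p = 0.609) for choroid plexus, *Tagln* (0.45, adjusted p = 0.605) for mural cells, *Hba-a1* (0.43, adjusted p = 0.463) for red blood cells and *Cldn5* (-0.30, adjusted p = 0.199) for endothelial cells. For microglia it was *Cx3cr1* (-0.24, adjusted p = 0.276), for oligodendrocytes *Mag* (-0.21, adjusted p = 0.463), for hippocampal neurons *Prox1* (-0.12, adjusted p = 0.744) and for astrocytes *Gfap* (-0.09, adjusted p = 0.670). Summed oligodendrocyte markers were 4319 to 5672 CPM in SOR and 5278 to 5758 CPM in homecage libraries.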
